A study of Mus musculus with 9 samples.

Results

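The genes followed here are 10 products of the mouse prostate gland, chosen by name: Pbsn, Msmb, Tgm4, Defb50, Azgp1, Sbp, Mme, Psca, Folh1 and Crisp1. Each was read from the probe set that carries its symbol and no other. That gave 9 of the 10 genes out of 22180 named on the array, each with a single probe set. Crisp1, a cysteine-rich secretory protein, had no probe set under its symbol alone and was not analysed here. Folh1 fell below the filter on dim genes, so 8 of the 10 entered the tests among 16635 genes. Pbsn, Msmb, Tgm4, Defb50, Azgp1 and Sbp encode secreted proteins, whereas Mme, Psca and Folh1 encode proteins of the cell surface and are prostate products in a wider sense.

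The arrays measured RNA from lesions captured by laser from fixed prostates of male mice, 12 months of age and of mixed strain. Control mice carried PbCre, a Cre recombinase driven by a probasin promoter that is active in prostate epithelium, and not the T-3Mb-Erg allele. The other mice carried PbCre and 1 copy of the T-3Mb-Erg allele, which models the deletion that joins Tmprss2 to Erg. The 3 groups of 3 arrays were high-grade prostatic intraepithelial neoplasia (HG-PIN, dysplastic epithelium within the gland) of control mice, HG-PIN of T-3Mb-Erg mice, and poorly differentiated tumour of those same T-3Mb-Erg mice, 6 mice in all. No group was of normal prostate, and the genotype is given here only in part. The labels do not say from which prostate lobe a lesion was taken.

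The luminal cells of the prostate secrete prostatic fluid, a part of semen, and androgen acting through its receptor keeps their secretory genes on. The mouse gland has an anterior, a dorsal, a lateral and a ventral lobe, which secrete different mixtures: probasin is a product of the dorsal and lateral lobes, and the spermine-binding protein Sbp one of the ventral lobe. The levels of these genes are widely used as signs of a differentiated, androgen-responsive luminal cell.

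Facts of the whole series bear on all values. Signal is given as the deposited linear intensity or its log2. The 95th percentile of log2 signal lay between 6.15 and 6.65 on the 9 arrays. Control HG-PIN replicate 2, T-3Mb-Erg HG-PIN replicate 3 and tumour replicate 2 had the narrowest range of their groups. A background level was taken from 1390 olfactory and vomeronasal receptor genes, most of which are silent outside sensory epithelia: the 95th percentile of their means was 4.81 on the log2 scale, an intensity of 28.0. Among the genes tested, 4634 had a mean above this receptor level. The captures of both HG-PIN groups carried luminal markers, with 10 or 11 of 11 markers above the receptor level on every array, against 3 to 6 of 11 in the tumours. Fewer cells of a type and less RNA per cell cannot be told apart in such captures.

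The secretory genes were bright on some HG-PIN arrays and dim on every tumour array. Of the 9 genes measured, 8 exceeded the receptor level on at least 1 of the 6 HG-PIN arrays, and 0 did so on any tumour array. Arrays of 1 group differed widely. The intensities of the 9 genes summed to 1362, 223 and 4729 in control HG-PIN replicates 1, 2 and 3, to 843, 272 and 852 in T-3Mb-Erg HG-PIN, but to 120, 152 and 115 in tumours. Control HG-PIN replicate 3 was the brightest array for 6 of the genes.

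**Figure D1:**
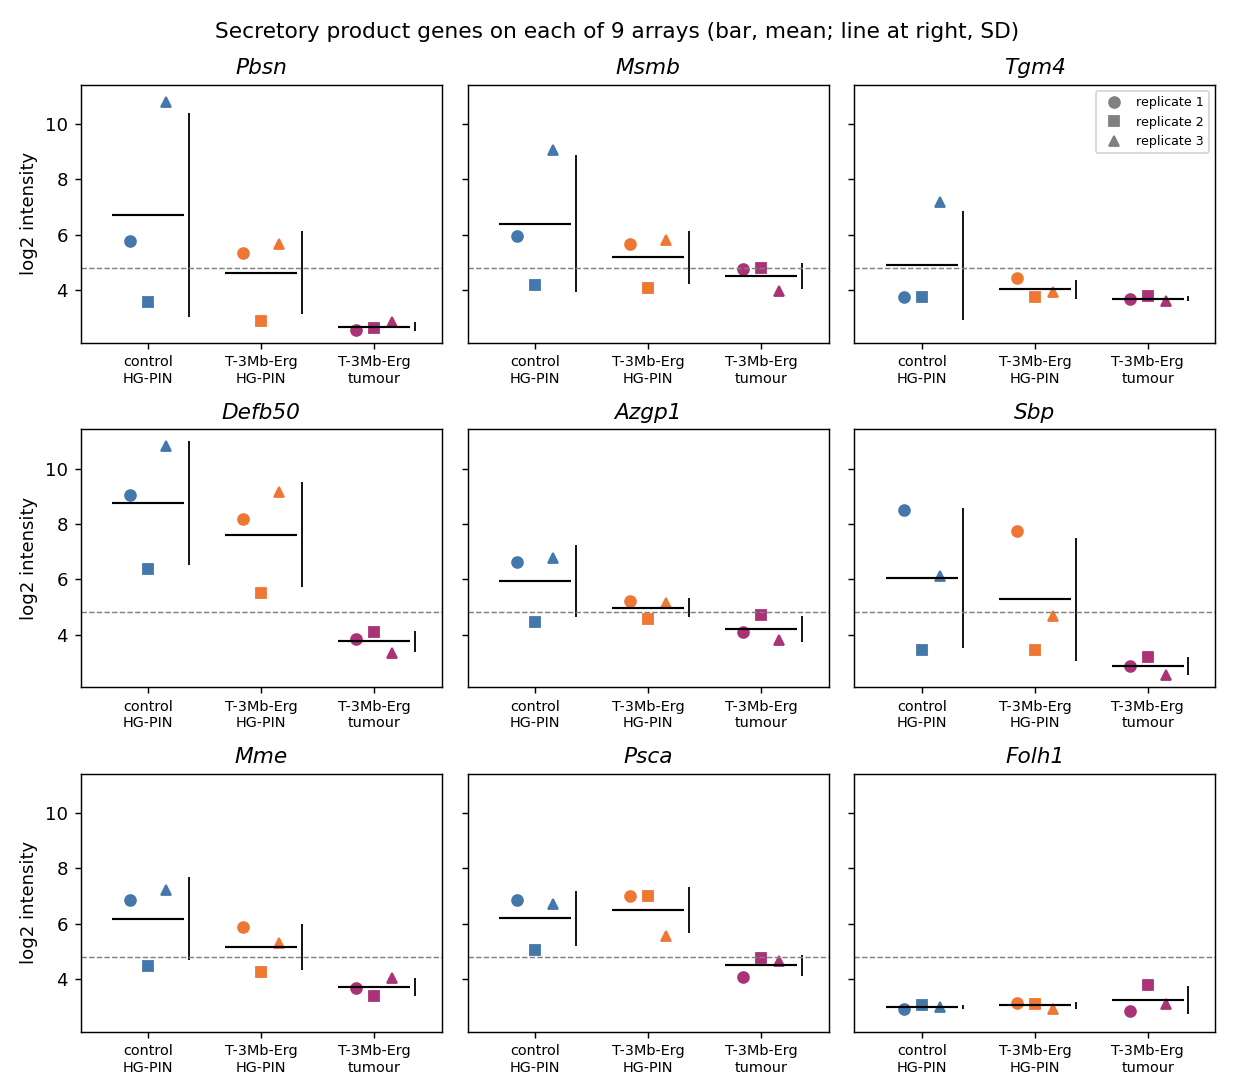
Log2 intensity (y axis) of each of the 9 measured genes on the 9 arrays, by group (x axis). Symbols mark replicates, bars the group mean, vertical lines 1 SD on either side of it (n = 3 arrays), and the dashed line the receptor level of 4.81. All tumour points lie below the dashed line, and the control HG-PIN triangle (replicate 3) lies highest for Pbsn, Msmb, Tgm4, Defb50, Azgp1 and Mme.

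Probasin, the product of Pbsn, is a secreted, androgen-regulated lipocalin, and a probasin promoter drives the Cre transgene of these mice. The intensity of Pbsn was 54.4, 11.9 and 1782 in control HG-PIN replicates 1 to 3. It was 40.6, 7.43 and 50.2 in T-3Mb-Erg HG-PIN against 5.80, 6.23 and 7.24 in tumours. A single array, control HG-PIN replicate 3, stood 32.8-fold above the next, and replicate 2 of either HG-PIN group lay near the tumours. The HG-PIN groups overlapped, and every tumour array lay below every HG-PIN array, by a narrow margin (2.86 against 2.89 on the log2 scale). Both of these values were under the receptor level. On that scale the groups had means of 6.71 ± 3.71, 4.63 ± 1.51 and 2.68 ± 0.16 (SD, n = 3 each). The change from control HG-PIN to T-3Mb-Erg HG-PIN was -2.08 (SE 1.37, adjusted p = 0.998), and it was -0.04 without control HG-PIN replicate 3. The change from T-3Mb-Erg HG-PIN to tumour was -1.95 (SE 1.38, adjusted p = 0.883).

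The stretch before the start of the mouse's own Pbsn gene is shown because a probasin promoter also drives Cre in the model, where the transgene's own sequence was not used here. Those of Tgm4 and Sbp are shown as secretory genes that were brightest on different control arrays. The windows hold the 250 bases before a RefSeq transcript start in build GRCm38.p6: Pbsn at chrX:77853501-77853750 on the minus strand, Tgm4 at chr9:123034491-123034740 and Sbp, for the last of its listed starts, at chr17:23941668-23941917, both on the plus strand. Capitals mark AGAACA or its reverse complement TGTTCT, a single arm of the palindrome bound by the androgen receptor, and TATAAA, the core of a TATA box.
Pbsn: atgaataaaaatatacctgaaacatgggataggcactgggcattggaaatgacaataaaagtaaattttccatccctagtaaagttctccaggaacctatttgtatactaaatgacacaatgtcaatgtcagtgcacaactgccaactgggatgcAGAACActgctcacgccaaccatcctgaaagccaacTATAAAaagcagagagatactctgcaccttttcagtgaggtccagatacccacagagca
Tgm4: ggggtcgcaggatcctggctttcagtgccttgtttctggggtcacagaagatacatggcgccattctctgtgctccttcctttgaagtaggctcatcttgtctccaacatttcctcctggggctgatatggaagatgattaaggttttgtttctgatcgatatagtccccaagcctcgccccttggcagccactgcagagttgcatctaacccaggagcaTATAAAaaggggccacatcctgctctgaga
Sbp: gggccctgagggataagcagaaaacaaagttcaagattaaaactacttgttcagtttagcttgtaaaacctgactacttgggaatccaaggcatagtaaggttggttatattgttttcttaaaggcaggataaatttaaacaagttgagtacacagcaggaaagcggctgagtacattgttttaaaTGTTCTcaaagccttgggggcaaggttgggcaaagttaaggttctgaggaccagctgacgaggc
A match to AGAACA on either strand began 95 bases before the Pbsn start and 64 before that Sbp start. The windows of the other listed Sbp starts, not shown, held no match. A match was found in 2 of the 11 windows of the 7 genes that have a window (Mme, Azgp1, Folh1, Tgm4, Sbp, Crisp1 and Pbsn). It was found in 16.1% of all 32851 windows of this length. The whole palindrome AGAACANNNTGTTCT was in none of the 11 and in 3 of all windows. TATAAA, searched on the gene's own strand, began 59 bases before the start of Pbsn, 30 before that of Tgm4 and 31 before that of Crisp1, and was in 7.59% of all windows. These are matches of letters only.

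Msmb encodes beta-microseminoprotein, a small abundant protein of seminal plasma. Its intensity was 61.4, 18.0 and 537 in control HG-PIN, 50.9, 16.8 and 56.1 in T-3Mb-Erg HG-PIN against 26.9, 27.5 and 15.5 in tumours. As with Pbsn, control HG-PIN replicate 3 was far the highest (8.73-fold above the next) and replicate 2 of both HG-PIN groups was low, here below 2 of the tumour arrays. All 3 groups overlapped. The log2 change was -1.21 (SE 0.94) between the HG-PIN groups and -0.69 (SE 0.95) from T-3Mb-Erg HG-PIN to tumour (adjusted p = 0.998 and 0.984), and without control HG-PIN replicate 3 the first was 0.13.

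Tgm4, the prostate transglutaminase that crosslinks seminal proteins into the copulatory plug, was above the receptor level on 1 array alone. Its intensity was 13.5, 13.4 and 144 in control HG-PIN, 21.4, 13.5 and 15.2 in T-3Mb-Erg HG-PIN against 12.8, 13.6 and 12.1 in tumours. Apart from control HG-PIN replicate 3, no group of arrays stood apart for Tgm4. Its log2 changes were -0.86 (SE 0.70) between the HG-PIN groups, 0.29 without that array, and -0.35 (SE 0.71) from T-3Mb-Erg HG-PIN to tumour, with adjusted p = 0.998 and 0.995. A difference between the other arrays was not detectable at this signal.

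Defb50, a beta-defensin of the antimicrobial peptide family, had the largest fitted difference between tumour and HG-PIN among the 8 genes tested. It read 529, 83.2 and 1825 in control HG-PIN, 287, 45.8 and 575 in T-3Mb-Erg HG-PIN against 14.3, 16.9 and 10.0 in tumours. All 6 HG-PIN arrays exceeded the receptor level and no tumour array did, and the lowest HG-PIN array (5.52 on the log2 scale) was clear of the highest tumour array (4.08). Group means were 8.75 ± 2.24, 7.62 ± 1.89 and 3.75 ± 0.38 on the log2 scale (SD, n = 3 each). Tumour and HG-PIN of the same mouse differed by -4.32, -1.44 and -5.84. The fitted change was -3.87 (SE 1.05, 95% interval -6.17 to -1.57, 14.6-fold), which did not pass over all genes (adjusted p = 0.242). Against control HG-PIN it was -5.00 (SE 1.04, 32.1-fold, adjusted p = 0.0859). Both folds are limited by background, since the tumour values lie under the receptor level. Between the HG-PIN groups the change was -1.14 (SE 1.04, adjusted p = 0.998), and -0.10 without control HG-PIN replicate 3.

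Azgp1 encodes zinc-alpha-2-glycoprotein, a secreted relative of the class I histocompatibility molecules. Its intensity was 98.5, 21.7 and 109 in control HG-PIN, 37.1, 23.6 and 35.5 in T-3Mb-Erg HG-PIN against 16.8, 26.2 and 14.0 in tumours. Here 2 control arrays, not 1, stood high, and tumour replicate 2 lay above replicate 2 of both HG-PIN groups. The log2 changes were -0.97 (SE 0.53) between the HG-PIN groups, -0.78 (SE 0.53) from T-3Mb-Erg HG-PIN to tumour and -1.75 (SE 0.53) from control HG-PIN to tumour, with adjusted p = 0.998, 0.867 and 0.257. The first was -0.56 without control HG-PIN replicate 3, -0.63 without control HG-PIN replicate 1 and -1.72 without control HG-PIN replicate 2.

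Sbp, the spermine-binding protein, is an androgen-dependent product of the ventral lobe, and its order over arrays was not that of Pbsn. It read 367, 11.0 and 69.9 in control HG-PIN, 212, 10.8 and 25.2 in T-3Mb-Erg HG-PIN against 7.34, 9.17 and 5.75 in tumours. Replicate 1 was the highest of both HG-PIN groups, whereas control HG-PIN replicate 3, the brightest array for Pbsn, stood in the third place. Every tumour array lay below every HG-PIN array, though the closest were 3.20 and 3.43 on the log2 scale, both under the receptor level. The log2 change was -0.76 (SE 1.16, adjusted p = 0.998) between the HG-PIN groups, where leaving out control HG-PIN replicate 1 gave 0.48, and -2.41 (SE 1.17, adjusted p = 0.700) from T-3Mb-Erg HG-PIN to tumour, where leaving out T-3Mb-Erg HG-PIN replicate 1 gave -1.18.

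Mme encodes neprilysin, a zinc endopeptidase of the luminal cell membrane that degrades small peptides. Its intensity was 116, 22.2 and 150 in control HG-PIN, 59.3, 19.1 and 40.0 in T-3Mb-Erg HG-PIN against 12.7, 10.5 and 16.5 in tumours. The tumour arrays lay below all HG-PIN arrays, though the closest were 4.04 and 4.26 on the log2 scale, both under the receptor level. The HG-PIN groups overlapped. The change from T-3Mb-Erg HG-PIN to tumour was -1.45 (SE 0.63, adjusted p = 0.605), and it was negative in each of the 3 mice (-2.22, -0.87 and -1.28). From control HG-PIN to tumour it was -2.48 (SE 0.63, 5.59-fold, adjusted p = 0.157), and between the HG-PIN groups -1.03 (SE 0.63, adjusted p = 0.998). The latter was -0.51 without control HG-PIN replicate 3, -0.69 without control HG-PIN replicate 1, -0.54 without T-3Mb-Erg HG-PIN replicate 2 and -1.88 without control HG-PIN replicate 2.

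Psca, prostate stem cell antigen, is a lipid-anchored surface protein of the Ly6 family, and its HG-PIN arrays ranked differently from those of the other genes. It read 115, 33.3 and 104 in control HG-PIN, 127, 127 and 46.6 in T-3Mb-Erg HG-PIN against 16.6, 27.4 and 24.9 in tumours. T-3Mb-Erg HG-PIN replicate 2, the lowest HG-PIN array for Pbsn, Msmb, Defb50, Sbp and Mme, was the highest for Psca. All HG-PIN arrays exceeded the receptor level and no tumour array did. Group means were 6.20 ± 0.99, 6.51 ± 0.83 and 4.49 ± 0.38 on the log2 scale (SD, n = 3 each). Psca had the only positive change between the HG-PIN groups among the 8 genes, 0.30 (SE 0.52, 95% interval -0.84 to 1.44, adjusted p = 0.998), which was -0.27 without control HG-PIN replicate 2. Tumour minus HG-PIN of the same mouse gave -2.93, -2.21 and -0.91. The fitted change was -2.02 (SE 0.52, 4.04-fold, adjusted p = 0.207). It passed when replicate 3 of that HG-PIN group was left out (-2.52, adjusted p = 0.0374), in a fit that called 99 genes in all (0.595%).

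Folh1, the folate hydrolase known as prostate-specific membrane antigen, was at background on all arrays. Its intensities lay between 7.14 and 13.9, with 7.57, 8.31 and 7.90 in control HG-PIN, 8.67, 8.62 and 7.48 in T-3Mb-Erg HG-PIN against 7.14, 13.9 and 8.61 in tumours. With all 9 values under the receptor level, no order of the groups could be read for Folh1, and it was not tested.

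The first comparison, of HG-PIN with and without the T-3Mb-Erg allele, asks how an otherwise like lesion differs where the allele is present. At an adjusted p under 0.05, 0 of 8 were called beside 0% of all genes. At an unadjusted p under 0.05 there were 0 of 8, and 682 of all genes (4.1%). The change was negative for 7 of 8, with a median of -0.998 against -0.004 over all genes. Control HG-PIN replicate 3 carried most of that median: without it 5 of 8 were negative, with a median of -0.07. None of the 8 had T-3Mb-Erg arrays all below the control arrays, beside 5.25% of all genes. The intervals reached from -5.08 to 0.91 for Pbsn and from -2.12 to 0.19 for Azgp1, so the error of these changes was wide. Without control HG-PIN replicate 2, the array with the narrowest range of its group, Pbsn, Msmb, Azgp1 and Mme had groups without overlap (4 of 8, beside 9.45% of all genes).

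**Figure D2:**
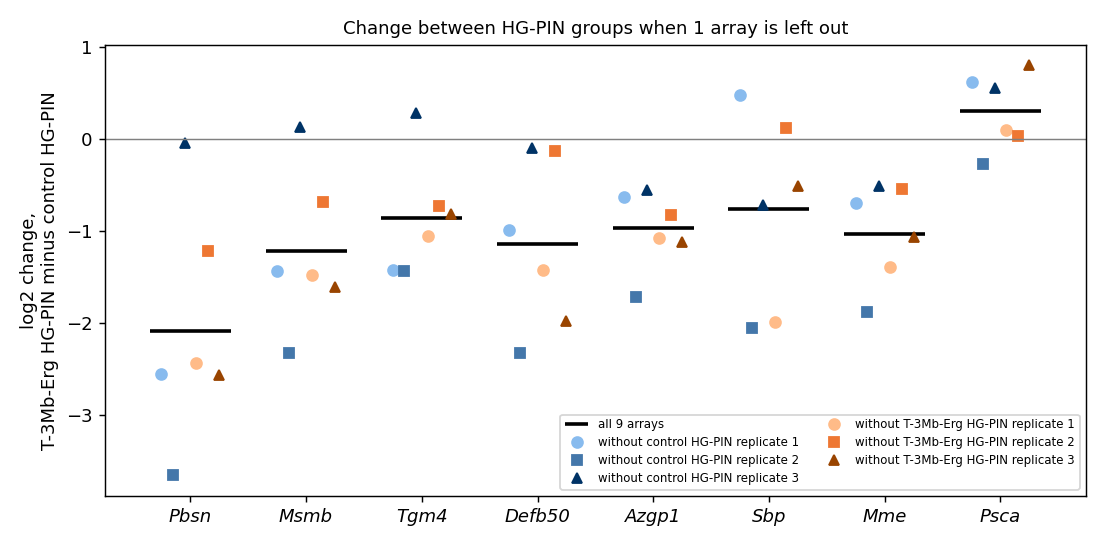
Fitted log2 change from control HG-PIN to T-3Mb-Erg HG-PIN (y axis) for each of the 8 tested genes (x axis), with all 9 arrays (black bars) and with 1 HG-PIN array left out (symbols). Without control HG-PIN replicate 3 the changes of Pbsn, Msmb, Tgm4 and Defb50 are -0.04, 0.13, 0.29 and -0.10, and without control HG-PIN replicate 2 all 8 lie below 0.

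The comparison of tumour with HG-PIN within the T-3Mb-Erg mice had 8 of 8 genes negative and a median change of -1.70, against -0.008 over all genes. None was called at an adjusted p under 0.05, beside 0.283% of all genes (47 genes, or 26 under a fixed replicate block for mouse), and 3 (Defb50, Mme and Psca) had an unadjusted p under 0.05, as did 7.65% of all genes. For 5 of the 8, Pbsn, Defb50, Sbp, Mme and Psca, the tumour arrays lay below all HG-PIN arrays of these mice, beside 6.43% of all genes. Without T-3Mb-Erg HG-PIN replicate 2, all 8 had groups without overlap (beside 10.6% of all genes). In the mouse of that array, tumour minus HG-PIN was 0.71 for Msmb, 0.15 for Azgp1, 0.01 for Tgm4, -0.25 for Pbsn and -0.23 for Sbp. It was -1.44 for Defb50, -0.87 for Mme and -2.21 for Psca.

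The tumours against control HG-PIN differ in lesion and genotype at once, and share the tumour arrays with the comparison within mice. All 8 changes were negative, under the same filter limit for Pbsn and Sbp, with a median of -2.19 against -0.029 over all genes. None was called (beside 0.18% of all genes), 6 had an unadjusted p under 0.05 (beside 9.32%), and 5 had groups without overlap (beside 7.51%). Without control HG-PIN replicate 2, 3 passed: Defb50, Azgp1 and Mme, with adjusted p = 0.0137, 0.0104 and 0.00881, in a fit that called 88 genes in all (0.529%). Without control HG-PIN replicate 3, 0 of the 8 and 0 of all genes passed, and the median was -1.71. For Pbsn, Defb50, Sbp, Mme and Psca every tumour array lay below all 6 HG-PIN arrays of both genotypes, beside 2.62% of all genes. For Pbsn, Sbp and Mme the closest tumour and HG-PIN values were both under the receptor level, where an order of arrays says little.

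**Figure D3:**
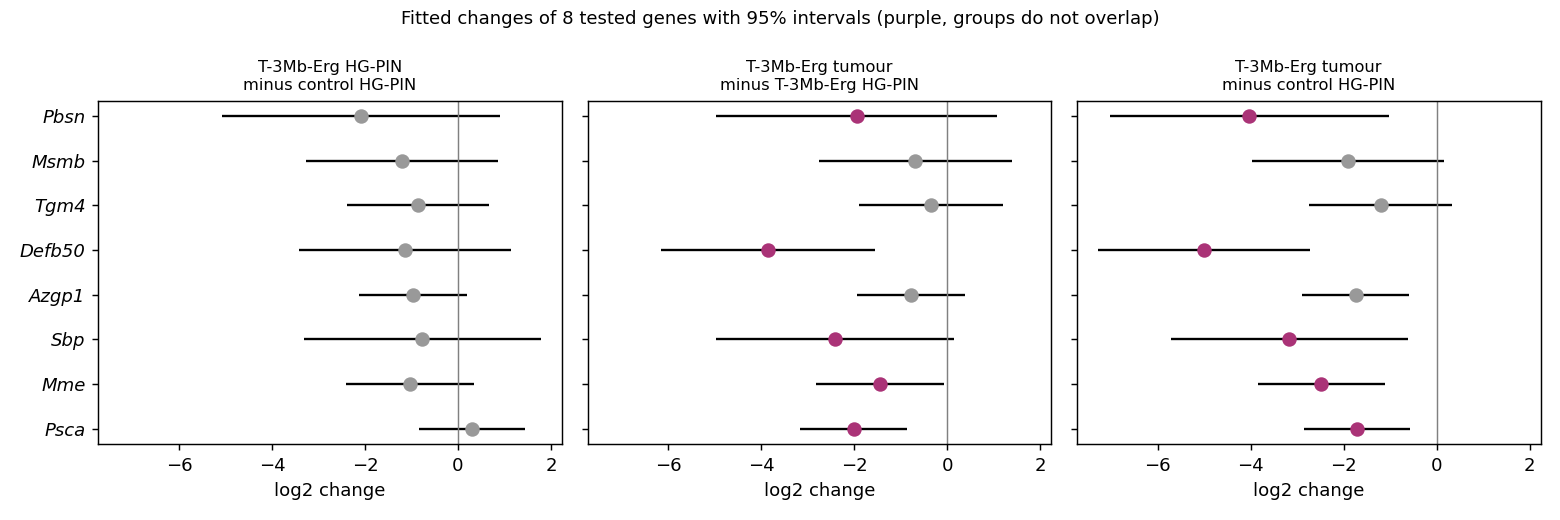
Fitted log2 change (x axis, points) with its 95% interval (lines, not adjusted for the number of genes) for the 8 tested genes (y axis) in the 3 comparisons. Purple points are genes whose arrays did not overlap between the groups, which were 0, 5 and 5 of 8 from left to right.

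Over the 9 arrays the genes largely varied together, as a description of arrays that also differ in range. Pearson's r between pairs of the 8 genes lay between 0.36 and 0.967, with a median of 0.80 over 28 pairs, and the median over 8 arrays was 0.78 without control HG-PIN replicate 3. Tgm4 and Psca had the lowest medians of r with the other 7 genes, 0.67 and 0.70, or 0.57 and 0.67 without control HG-PIN replicate 3. Of the genes tested, those most like each in pattern are named next, out of 14611 compared. The genes nearest Pbsn were Kmt2b (r = 0.947), Pate14 (0.941, or 0.76 without control HG-PIN replicate 3) and Slc25a20 (0.939), and those nearest Tgm4 were Pate9 (0.977), Tcaf3 (0.972) and Pate14 (0.939). The likeness to Tgm4 rested in part on control HG-PIN replicate 3: without it r was 0.90 for Pate9, 0.04 for Tcaf3 and 0.21 for Pate14. Msmb was most like Slc25a20 (0.958), Pate14 (0.929) and Tcaf3 (0.897), which were 0.92, 0.64 and 0.47 without that array, and Defb50 most like Fyb2 (0.948), Tspan13 and Cdc42ep5. Kmt2b, Slc25a20, Fyb2 and Cdc42ep5 lay under the receptor level even on control HG-PIN replicate 3, where Pbsn, Msmb and Defb50 were brightest. They read 4.585, 4.355, 4.573 and 4.066 there on the log2 scale, and their medians over the 9 arrays were lower still. Whether their r reflects more than background was not tested. The other genes named for Pbsn, Msmb, Tgm4 and Defb50 lay above the receptor level on that array. Azgp1 and Mme both had Cdcp3 first (0.968 and 0.969), followed by Anxa13 and Elapor1 for Azgp1 and by Gne and Iqgap2 for Mme. Sbp was most like Slc45a3, which encodes the prostate protein prostein (0.967), Nipal2 and Spink5. Psca was most like the epithelial genes Cdh1, encoding E-cadherin (0.976), Tmprss4, encoding a membrane serine protease (0.976), and Atp1b1, encoding a sodium pump subunit (0.974).

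Other secreted proteins of the prostate were read beside these genes from a list of 14, of which 12 were tested. In tumours against HG-PIN of the same mice 4 were called lower and 0 higher, beside 0.283% of all genes called in either direction. Of the 12 changes, 10 were negative and 2 positive. Mmp7, the epithelial metalloproteinase matrilysin, fell by 4.90 on the log2 scale (adjusted p = 0.0185), Pigr, the receptor that carries antibodies into secretions, fell by 3.94 (adjusted p = 0.0294), and Clu, encoding clusterin, fell by 3.15 (adjusted p = 0.0328). Wfdc2, a whey acidic protein family member named here after its value was seen, fell by 3.09 (adjusted p = 0.0370). Mmp7 read 812, 1265 and 823 in T-3Mb-Erg HG-PIN against 20.8, 27.5 and 55.0 in tumours, a far closer set of HG-PIN arrays than that of Pbsn or Defb50. The list had a median change of -2.39. Between the HG-PIN groups 0 of 12 passed, with Spink1, a secreted trypsin inhibitor, at -2.96 (SE 1.24, adjusted p = 0.998) and Wfdc3 at -1.02. Spink1 read 2782, 29.7 and 297 in control HG-PIN and 93.1, 14.4 and 39.1 in T-3Mb-Erg HG-PIN, with replicate 1 highest in both as for Sbp. From control HG-PIN to tumour, Clu and Mmp7 passed of the 12, beside 0.18% of all genes.

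Among genes on which secretion depends, 1 was called, beside 0.283% of all genes within the T-3Mb-Erg mice and 0.18% against control HG-PIN. Of the androgen response list, 9 of 12 genes were on the array under a single symbol and tested. Foxa1, the pioneer factor that opens chromatin for the androgen receptor, fell by 2.74 in tumours against T-3Mb-Erg HG-PIN (adjusted p = 0.0306) and fell by 2.56 against control HG-PIN (adjusted p = 0.0476). The other 8 were not called in any comparison, among them Trpv6 and Hoxb13, the prostate homeobox factor, which had the smallest p values between the HG-PIN groups at -0.55 and -0.42. Hoxb13 was under the receptor level on all 9 arrays. Medians of the 9 were -0.03 between the HG-PIN groups, -0.59 from T-3Mb-Erg HG-PIN to tumour and -0.93 from control HG-PIN to tumour. The last 2 comparisons had 3 and 1 positive changes among the 9. The androgen receptor gene was not analysed here. Of the secretory machinery (translocon, chaperones, vesicle transport) 0 of 17 tested genes were called, with medians of -0.07 between the HG-PIN groups, -0.03 from T-3Mb-Erg HG-PIN to tumour and -0.25 from control HG-PIN to tumour. Agr2, a disulfide isomerase of secretory cells, stood at -2.51 (SE 0.75, adjusted p = 0.309) within the T-3Mb-Erg mice. Creb3l4, a prostate-enriched factor of secretory capacity, stood at -0.68 there (adjusted p = 0.427) and was under the receptor level on all 9 arrays. From control HG-PIN to tumour Agr2 stood at -2.58 (adjusted p = 0.227), and Creb3l1 went the other way at 1.03 (SE 0.35, adjusted p = 0.333). Genes of polyamine metabolism (enzymes, antizymes and antizyme inhibitors), listed because the Sbp product binds spermine, had 0 of 8 called. Their medians were 0.27, 0.004 and 0.28. Sat1, which acetylates polyamines for export, stood at 1.23 between the HG-PIN groups (SE 0.55, adjusted p = 0.998). Family relatives of the 10 genes (other Ly6 proteins, transglutaminases, peptidases, a lipocalin, defensins and Crisp proteins) had 0 of 15 called. From T-3Mb-Erg HG-PIN to tumour their changes were 9 positive and 6 negative, with a median of 0.096. The smallest p there were those of Ly6d at -2.54 (adjusted p = 0.0531) and Lcn2 at -2.44 (adjusted p = 0.113).

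Markers of cell types are given beside these differences. Of luminal markers, 7 of 11 were called lower in tumours within the T-3Mb-Erg mice, beside 0.283% of all genes. Cldn4, Elf3 and Krt8 had the smallest p there. Against control HG-PIN 2 of 11 were called lower (Cldn4 and Foxa1), beside 0.18% of all genes. The summed intensity of the luminal markers was 1026 to 3522 in control HG-PIN, 1785 to 3958 in T-3Mb-Erg HG-PIN and 324 to 887 in tumours. Fibroblast markers, 6 of 6 positive and 0 called in each comparison, summed to 127 to 171, 189 to 524 and 349.5 to 3185. On control HG-PIN replicate 2, where most of the secretory genes were low, the luminal sum was also the lowest of the HG-PIN arrays, but on T-3Mb-Erg HG-PIN replicate 2 it was 3453. The luminal sums lean on 1 gene, Cd24a, which read 457 and 2107 on these arrays, in that order. The mean log2 level of the 11 luminal markers, on which Cd24a weighs less, was 5.99 and 7.28 there. Smooth muscle markers summed to 1261 on T-3Mb-Erg HG-PIN replicate 1 and to between 143 and 584 elsewhere. Immune markers summed to 309.5 on tumour replicate 3 and to between 106 and 156 elsewhere. The 4 basal markers measured summed to 147 to 249 in control HG-PIN, 519.5 to 610 in T-3Mb-Erg HG-PIN and 95.5 to 130 in tumours. Krt15, a basal keratin, fell by 3.00 in tumours against T-3Mb-Erg HG-PIN (adjusted p = 0.0158). It was 1 of the 4 called, beside 0.283% of all genes. The part of these cells in the differences of the secretory genes was not tested.

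Seminal vesicle genes, which mark the neighbouring gland and are not prostate products, differed from array to array too. Their 9 measured genes summed to 1274, 2794 and 180 in control HG-PIN, 6555, 2778 and 759 in T-3Mb-Erg HG-PIN against 533, 219 and 925 in tumours. Control HG-PIN replicate 3 had the lowest of these sums and the highest sum of the secretory genes. Svs5, a seminal vesicle secretory protein gene, read 551, 1577 and 27.7 in control HG-PIN, 4806, 1529 and 203 in T-3Mb-Erg HG-PIN against 6.46, 8.18 and 340 in tumours. None of the 8 tested passed in any comparison. From T-3Mb-Erg HG-PIN to tumour 3 of the 8 changes were positive and 5 negative. Ceacam10 went the other way from Svs5, at 1.22 there (adjusted p = 0.799) and 1.93 from control HG-PIN to tumour (adjusted p = 0.365). It read 461, 139 and 208 in tumours and made up most of the sums of tumour replicates 1 and 2. No seminal vesicle gene had a value of 0 on any array, and 1 to 7 of the 9 were above the receptor level. The part of seminal vesicle RNA, or of the lobe captured, in the spread of the secretory genes was not tested.

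**Figure D4:**
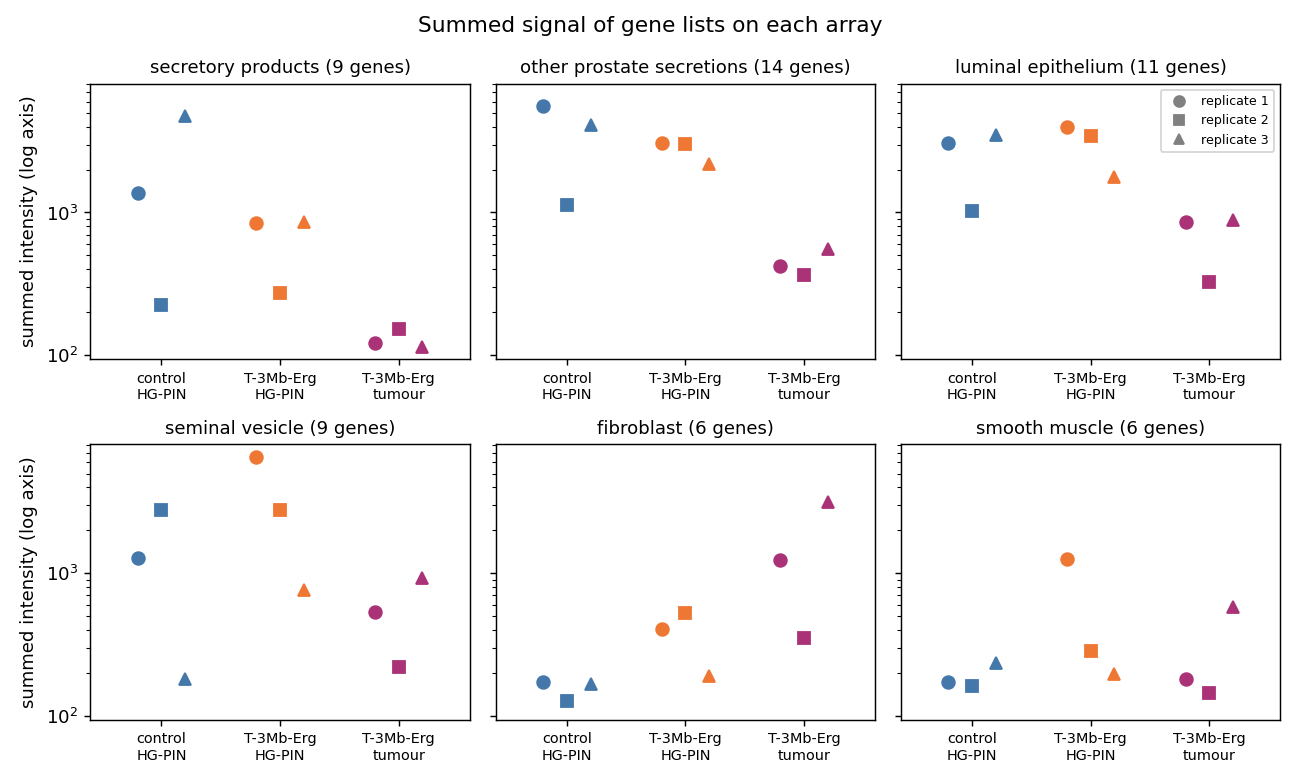
Summed linear intensity of the genes of 6 lists (y axis, log scale) on each array, by group (x axis), with symbols for replicates. The secretory products are lowest on the 3 tumour arrays, the luminal list also, the fibroblast list is highest on tumour replicates 1 and 3, and the seminal vesicle list is lowest on control HG-PIN replicate 3.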

How the data were processed

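Per the labels' protocols, lesions were captured by laser microdissection from stained sections of formalin-fixed prostate, and the RNA was amplified with the NuGEN Ovation V2 system, labelled and read on Affymetrix Mouse Gene 2.0 ST arrays, 1 array per capture. Fixation fragments RNA and captures yield little of it, which can weaken signals and make arrays of 1 group less alike. The deposited values are linear intensity values for 41345 probe sets, between 1.36 and 13922. How background, probe summary and normalization were handled is not given in the sources used here, and their number, 3 arrays per group, limits the precision.

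The labels' genotype, lesion and mouse identifier set the groups. Replicate numbers of the T-3Mb-Erg groups mark the same mouse, per the labels; deviations of same-mouse arrays from their group means correlated at 0.17, 0.10 and -0.30. Probe sets were named from the platform annotation, updated through a RefSeq gene table of GRCm38.p6: 23521 had 1 symbol, 1814 several and 16010 none. The brightest probe set stood for a gene. Intensities were taken to log2 without an offset, and the dimmest 25% of genes by mean (below log2 3.25) were left out.

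Changes were fitted over all 9 arrays with limma 3.58.1 in R 4.3.3, with the mouse as a random block (consensus correlation -0.015) and a mean trend of the variance, and p values were adjusted by Benjamini-Hochberg over 16635 genes. A gene is called at an adjusted p under 0.05. The script was tested on simulated data. Groups do not overlap where the highest array of one lies below the lowest of the other. Counts and shares of such genes take a single direction: T-3Mb-Erg HG-PIN below control HG-PIN, or tumour below HG-PIN. Promoter sequences are RefSeq's.

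Alternatives were other normalizations, offsets, filters, probe-set rules, blocks, array weights, a term for array range, and arrays left out. Each gene named from another list is one of up to 3 called members with the smallest p, or else one of the 2 with the smallest p. Likeness was Pearson's r over the 9 arrays, without predicted models and small RNAs. The genes described, the lists and the tests were chosen with earlier results of these data known. A further allele that both genotypes share is not reported here.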

Additional observations from a re-analysis of the deposited data

How the results depend on the processing

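Of 8 genes, 0 were called in the main settings of any comparison. Within T-3Mb-Erg mice 1 of 8, Psca, was called with array weights (-2.35, adjusted p = 0.0159), with each group's narrowest-range array left out (-2.64, adjusted p = 0.00706) and with replicate 3 of T-3Mb-Erg HG-PIN left out, so that leaving out single arrays gave 0 to 1. Those fits called 2.43%, 1.09% and 0.595% of all genes, in that order. Under a fixed replicate block for mouse 0 of 8 were called, among 26 genes in all. From control HG-PIN to tumour 6 were called with array weights (Pbsn, Defb50, Azgp1, Sbp, Mme and Psca), in a fit that called 5.64% of all genes. The array range as a term gave 2 (Defb50 and Mme, beside 1.18% of all genes). Without the narrowest-range arrays there were 4 (Defb50, Azgp1, Mme and Psca, beside 1.56%). Leaving out single arrays gave 0 to 3, with the 3 found without control HG-PIN replicate 2 (beside 0.529% of all genes). Over these fits the share of all genes called ran from 0% to 1.57%, the highest without tumour replicate 2. Between the HG-PIN groups 0 were called under any of 19 settings (lowest adjusted p = 0.192). There the change of Sbp ranged from -2.05 to 0.48 when single arrays were left out (0.48 without control HG-PIN replicate 1, 0.12 without T-3Mb-Erg HG-PIN replicate 2), that of Psca from -0.27 to 0.81, of Msmb from -2.32 to 0.13 and of Tgm4 from -1.43 to 0.29. In both comparisons with tumours, 0 of the changes reversed. Genes without overlap were counted in the lower direction only. Between the HG-PIN groups they numbered 0 to 4 with single arrays left out (beside 9.35% to 12.8% of all genes). Without the narrowest-range arrays they numbered 5 (17.8%). Within T-3Mb-Erg mice they numbered 5 to 8 (9.2% to 15.5%) and 7 (20.1%), and from control HG-PIN to tumour 5 to 7 (10.8% to 20%) and 8 (25%). With single arrays left out, the counts and the shares are separate ranges. There the 8 within T-3Mb-Erg mice came beside 10.6%, and the 4 between the HG-PIN groups beside 9.45%. These counts without overlap were chosen after seeing the data.

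Over all genes the number called was 0 between the HG-PIN groups, with 9 under array weights, 7 with the range term, 4 without the narrowest-range arrays, 4 on the 6 arrays compared and 0 to 6 with single arrays left out (6 without tumour replicate 2). Within T-3Mb-Erg mice it was 47, with 71 under quantile normalization, 18 with an offset of 16, 405 under array weights, 194 with the range term, 182 without the narrowest-range arrays, and 0 (without tumour replicate 1) to 110 (without tumour replicate 2) with single arrays left out. From control HG-PIN to tumour it was 30, with 65, 7, 938, 196 and 260 under those settings in the same order, 7 on the 6 arrays compared and 0 to 261 with single arrays left out. The cause was not tested. Without the narrowest-range arrays the mouse block could not be estimated and was left out of that fit, and leaving out an array leaves 2 in its group, whose spread is taken from all groups. Signal near background limits every fold against tumours, and 3 arrays per group leave the intervals wide.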
